A study of Mus musculus with 6 samples.

Results

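Angiopoietin-Tie and apelin signalling and the genes of endothelial tip cells were examined in liver sinusoidal endothelial cells (LSECs), the fenestrated cells that line the liver sinusoids, from *Txnip-/-* and WT mice. The 10 members, chosen by gene symbol, were the receptor genes *Tek* and *Tie1*, the angiopoietin genes *Angpt1* and *Angpt2*, the angiopoietin-like gene *Angptl4*, the apelin gene *Apln* with its receptor gene *Aplnr*, and *Esm1*, *Fgfr1* and *Stc1*. They are 10 of the 23282 gene rows of each deposited file. The 6 libraries were 3 from LSECs of *Txnip-/-* mice, which lack *Txnip* in every cell and are on a C57BL/6J background, and 3 from LSECs of C57BL/6J WT controls, with no treatment named in the labels for either genotype. According to the study's methods the cells were purified on anti-CD146 beads after a density gradient. These methods also describe culture of such cells in endothelial growth medium, but neither they nor the labels state whether the sequenced cells had been cultured, nor the age or sex of the mice. Separate mice are not named for the replicates, so p-values measure the spread between these libraries, which may be technical.

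Angiopoietins are secreted ligands of TEK (also called TIE2), a receptor tyrosine kinase of endothelial cells. ANGPT1, made mainly by perivascular cells, activates TEK and keeps vessels quiescent, whereas ANGPT2, stored and released by the endothelium itself, is a context-dependent antagonist that loosens vessels, and TIE1 is a related receptor that binds neither ligand strongly but modulates TEK. Apelin is a peptide ligand of the G protein-coupled receptor APLNR. In sprouting vessels the leading tip cell is marked by *Apln*, *Esm1* and *Angpt2*, while APLNR is found mostly on the cells behind it.

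Counts of 3 members dominated the set. In WT LSECs *Esm1*, *Angpt2* and *Apln* ranked 72nd, 114th and 257th by level among the 11583 genes tested, whereas *Aplnr* had no count in any library and *Angpt1* had counts in 1. *Esm1* and *Angpt2* fell in *Txnip-/-* LSECs, to levels 1.45-fold and 1.32-fold lower, and *Angptl4* rose 1.64-fold. *Apln*, the other abundant tip-cell transcript, did not fall with them.

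For 3 of the 4 members with an entry in the promoter table used here, RefSeq sequence is shown from 250 bases before to 50 bases after the transcript start (build GRCm38.p6), so that the promoters of *Esm1*, which was called lower in *Txnip-/-* LSECs, can be set beside those of *Tie1* and *Apln*, whose means were lower and higher but missed the threshold. The windows of *Esm1*, *Apln* and *Tek* begin from the same start as the gene positions given below, which come from GENCODE, but the RefSeq start of *Tie1* lies 212 bases inside the GENCODE gene. The *Esm1* window is chr13:113209409-113209708 on the plus strand, the *Tie1* window chr4:118489800-118490099 on the minus strand and the *Apln* window chrX:48034804-48035103 on the minus strand. Capitals mark matches, on either strand, to the ETS-type letters AGGAAG or CGGAAG, or to GCGTG, a core of the hypoxia response element.
Esm1: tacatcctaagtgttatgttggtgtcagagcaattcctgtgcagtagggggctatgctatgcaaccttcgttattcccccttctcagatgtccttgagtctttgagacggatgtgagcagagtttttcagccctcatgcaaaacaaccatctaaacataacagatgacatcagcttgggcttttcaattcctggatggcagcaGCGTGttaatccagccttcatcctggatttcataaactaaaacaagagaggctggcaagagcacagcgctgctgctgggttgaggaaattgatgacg
Tie1: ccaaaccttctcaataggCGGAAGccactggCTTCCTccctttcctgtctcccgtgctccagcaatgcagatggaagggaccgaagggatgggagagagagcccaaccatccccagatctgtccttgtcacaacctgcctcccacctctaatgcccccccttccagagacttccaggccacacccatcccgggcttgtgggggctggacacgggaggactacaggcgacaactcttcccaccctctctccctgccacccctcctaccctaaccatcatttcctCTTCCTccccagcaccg
Apln: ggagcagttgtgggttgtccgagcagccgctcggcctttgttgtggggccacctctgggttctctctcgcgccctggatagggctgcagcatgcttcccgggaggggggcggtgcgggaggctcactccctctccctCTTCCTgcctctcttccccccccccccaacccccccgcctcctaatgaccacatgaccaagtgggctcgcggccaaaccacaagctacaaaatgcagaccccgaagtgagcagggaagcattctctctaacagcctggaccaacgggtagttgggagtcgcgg

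The *Tie1* window held 2 matches to AGGAAG and 1 to CGGAAG, the *Apln* window 1 to AGGAAG, and the *Esm1* window 1 to GCGTG. The *Tek* window, not shown, held none of these. Among all 32851 promoter windows of this length, 35.4% held AGGAAG, 16.9% CGGAAG and 32.4% GCGTG, so these are common letters. The hypoxia core ACGTG (19.6% of windows), the FOXO motif GTAAACA (3.65%) and the AP-1 motif TGANTCA (7.81%), where N is any base, were also searched on both strands and matched none of the 4 windows. A match describes the letters only.

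The assay was QuantSeq 3′ mRNA-Seq, in which a read starts near the polyadenylated end, so counts were not divided by gene length. A count stands for a read, since no molecular identifiers are named, and a row can miss reads, as for *Eno1* below. Comparisons between genes are therefore of counts rather than of transcripts. Levels are given as CPM, gene counts scaled to a common library size, with TMM factors that correct for library composition, as mean ± SD with n = 3 libraries per genotype. The test was the quasi-likelihood F-test of edgeR, and a gene was called at an adjusted p (Benjamini-Hochberg over the 11583 genes that passed the filter on low counts) under 0.05. The libraries held 9147764 to 10193952 counts, and 3 counts, taken as the floor of detection, equalled 0.286 to 0.335 CPM. *Txnip* had between 191 and 269 counts in the *Txnip-/-* libraries and 1901 to 2019 in the WT libraries, so all 6 libraries matched their labels. Some *Txnip* counts thus remained in the *Txnip-/-* libraries (20.4 to 30.0 CPM), and their source was not tested. By the chi-square per degree of freedom of their counts over genes, WT replicate 3 differed by 36.9 and 40.0 from its fellow WT replicates 1 and 2 but only by 13.3 to 17.2 from libraries of the other genotype, and the smallest difference, 3.93, was that between WT replicates 1 and 2. Its level of the LSEC marker *Lyve1*, 1520 CPM, likewise lay within the *Txnip-/-* range of 1475 to 1976 CPM, against 3482 and 3780 CPM in WT replicates 1 and 2. These 2 WT libraries also stood out with a smaller share of counts on the row of the ribosomal RNA precursor *Rn45s* (9.68% in WT replicate 2) than the other 4 (16.8% to 18.6%). The chi-square values include this row, and its part in them was not separated. A library left out that ends or makes a call is named beside the gene below.

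The cells expressed the endothelial programme. All 11 pan-endothelial markers and 13 of 14 LSEC markers passed the filter, with *Cdh5* at 1005 to 1210 CPM and *Stab2* at 185 to 252 CPM, while the LSEC marker *Cd209b* was at 0 in all libraries but WT replicate 2. The 11 arterial and venous endothelial markers, mostly *Sox17* and *Nr2f2*, summed to 644 to 725 CPM in *Txnip-/-* and 724 to 789 CPM in WT LSECs, with 0 of 6 tested called. Summed by list, markers of other cells lay below the LSEC and pan-endothelial markers, and some moved with genotype. Single Kupffer cell markers such as *Marco* nevertheless exceeded LSEC markers such as *Clec4g*. The 11 Kupffer cell markers summed to 262 to 292 CPM in *Txnip-/-* and 662 to 689 CPM in WT LSECs (9 of 10 tested called lower, 0 higher). The 17 stellate cell and fibroblast markers summed to 129 to 145 CPM and 79.5 to 86.3 CPM (3 of 13 tested called higher, 0 lower). The 11 hepatocyte markers summed to 62.4 to 69.3 CPM and 57.9 to 61.5 CPM with none called, although 1 was higher at an unadjusted p under 0.05. Platelet markers summed to 13.5 to 26.0 CPM, and cholangiocyte, lymphatic and mesothelial markers to under 8 CPM in every library. Neutrophil and lymphocyte markers were at or near 0, with *Mpo*, *Ngp*, *Cd3e* and *Ms4a1* at 0 in all 6 libraries. The part of these cells in the results below was not tested, and in such bulk samples fewer cells of a type and less RNA per cell cannot be told apart.

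Of the 10 members 8 passed the filter, and *Angpt1* and *Aplnr* did not. Among the 8, 2 were called lower (*Esm1* and *Angpt2*) and 1 higher (*Angptl4*) in *Txnip-/-* LSECs, where 0.976% of all genes tested were called lower and 0.57% higher. The genotypes did not overlap for 6 of the 8, namely *Esm1*, *Angpt2* and *Tie1* on the lower side and *Angptl4*, *Apln* and *Stc1* on the higher, against 17.4% of all genes tested without overlap in either direction. Calls are more frequent among abundant genes, at 3.54% of genes of at least 100 CPM, a level that 3 members reached. The median log2 fold change of the 8 was 0.048, with 4 higher and 4 lower, and that of all genes tested was -2.75e-05, so the members did not share a direction.

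**Figure D1:**
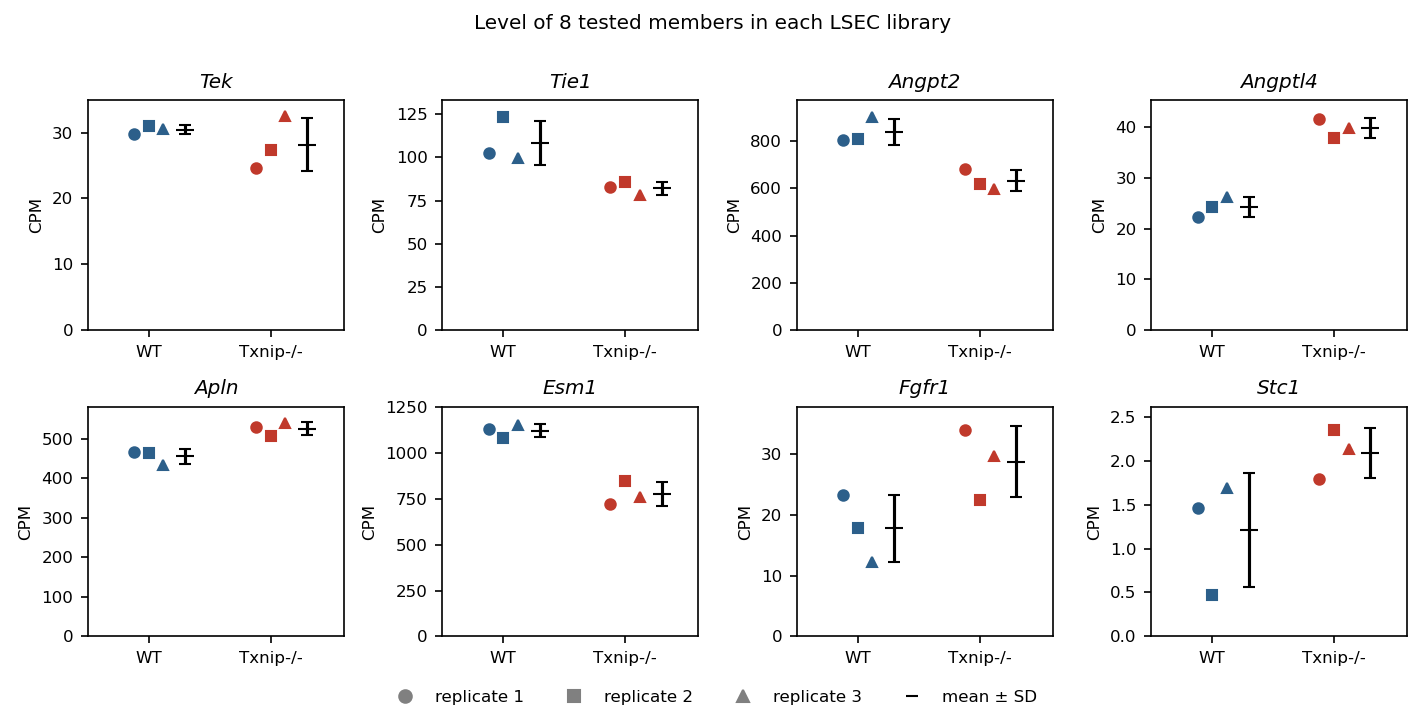
Level of each tested member (CPM, linear axes from 0) in the 3 WT and 3 *Txnip-/-* libraries. Symbols give the replicate and bars the mean ± SD of each genotype. *Esm1*, *Angpt2* and *Tie1* have every *Txnip-/-* library below every WT library, *Angptl4*, *Apln* and *Stc1* have every one above, and *Tek* and *Fgfr1* overlap.

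*Tek*, the angiopoietin receptor gene (chromosome 4 of GRCm38, 94739289 to 94874976, plus strand, 23 exons), was at 24.7, 27.3 and 32.5 CPM in *Txnip-/-* replicates 1, 2 and 3 and at 29.8, 31.1 and 30.6 CPM in the WT replicates. The *Txnip-/-* libraries lay on both sides of the WT libraries. The log2 fold change was -0.11 (95% interval -0.45 to 0.22, adjusted p = 0.872, edgeR). This interval did not reach the *Esm1* log2 fold change of -0.53, but it held those of *Tie1* (-0.40) and *Angpt2* (-0.40). *Tie1*, on the same chromosome (118471191 to 118490061, minus strand, 23 exons), was the receptor gene with more counts in every library, with 3.36, 3.13 and 2.41 *Tie1* counts per *Tek* count in *Txnip-/-* replicates 1 to 3 and 3.43, 3.97 and 3.27 in WT. These ratios overlapped. The *Tie1* level was 82.9, 85.5 and 78.3 CPM in *Txnip-/-* and 102, 123 and 99.8 CPM in WT LSECs. Thus each *Txnip-/-* library was below each WT library, but the difference missed the threshold (log2 fold change -0.40, standard error (SE) 0.11, adjusted p = 0.0954, edgeR). With a library left out its adjusted p ranged from 0.0272 to 0.535 (edgeR), and it passed when WT replicate 3 was dropped, at a log2 fold change of -0.46 as well as with DESeq2 (adjusted p = 0.046) and with no filter on low counts (adjusted p = 0.028, edgeR).

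*Angpt1*, the gene of the activating ligand (chromosome 15, 42424723 to 42676977, minus strand), had 5 counts in *Txnip-/-* replicate 1 and 0 in the other 5 libraries. The 5 counts equal 0.558 CPM with an exact 95% Poisson interval of 0.181 to 1.3 CPM, which covers counting error only, and by counting alone each 0 allows a level up to the floor of 0.286 to 0.335 CPM. No difference between the genotypes was detectable at this depth. *Angpt2*, the gene of the endothelial ligand (chromosome 8, 18690263 to 18741562, minus strand, 9 exons), was by contrast among the abundant transcripts. Counts of 6095, 6079 and 5589 were found for *Txnip-/-* against 8247, 8474 and 8522 for WT, without overlap. After scaling, its level in WT LSECs was 837 ± 55.7 CPM and fell to 633 ± 43.0 CPM without *Txnip*, a log2 fold change of -0.40 with an SE of 0.08 (adjusted p = 0.0145, edgeR). All 6 fits that left out a library kept the direction, with log2 fold changes of -0.46 to -0.35, but the call was lost without *Txnip-/-* replicate 2 (adjusted p = 0.091, edgeR) or replicate 3 (adjusted p = 0.118, edgeR).

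Set against its receptor within a library, which needs no scaling, *Angpt2* had 27.6, 22.7 and 18.4 counts per *Tek* count for *Txnip-/-* against 27.0, 26.0 and 29.5 for WT. These ratios overlapped, with *Txnip-/-* replicate 1, the library with the lowest *Tek* level, among the WT libraries.

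*Angptl4* encodes a secreted inhibitor of lipoprotein lipase with the fibrinogen-like domain of the angiopoietins, but it is not a TEK ligand. The gene lies on chromosome 17 (33773750 to 33781830, minus strand, 7 exons). Counts were 373, 371 and 373 for *Txnip-/-* against 228, 255 and 248 for WT, with no overlap. The level rose from 24.2 ± 2.02 to 39.8 ± 1.92 CPM, a log2 fold change of 0.71 with an SE of 0.15 (adjusted p = 0.0192, edgeR). The size of the change was stable when a library was left out (log2 fold changes 0.65 to 0.77), but the call held only without WT replicate 3 and was lost without any of the other 5, with adjusted p-values from 0.0534 without *Txnip-/-* replicate 2 to 0.153 without WT replicate 1 (edgeR).

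In the apelin arm, counts were found for the ligand gene and none for the receptor gene. *Apln* (X chromosome, 48025146 to 48034853, minus strand, 3 exons) reached 531, 507 and 540 CPM in *Txnip-/-* against 466, 465 and 434 CPM in WT LSECs. Every *Txnip-/-* library was above every WT library, by a small margin. The log2 fold change of 0.21 (95% interval 0.04 to 0.37) had an unadjusted p of 0.0166 and did not pass (adjusted p = 0.283, edgeR), and without scaling factors the genotypes overlapped. *Aplnr*, the receptor gene, is a single-exon gene on chromosome 2 (85136225 to 85139923, plus strand). It had 0 counts in each of the 6 libraries, against at least 434 CPM for its ligand. A row at 0 need not mean a gene without transcripts, since *Eno1*, a glycolytic gene used by nearly all cells and named here after its values were seen, was also at 0 in all 6 libraries, so the 0 sets no upper limit on the level of *Aplnr*. *Apela*, the gene of the second ligand of this receptor, was likewise at 0 in all 6 libraries.

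*Esm1* encodes endocan, a secreted proteoglycan of VEGF-stimulated endothelium and a standard tip-cell marker. It lies on chromosome 13 (113209659 to 113218098, plus strand, 3 exons) and was the most abundant member in both genotypes. Counts of 6446, 8297 and 7082 (*Txnip-/-*) stood against 11592, 11339 and 10904 (WT). The highest *Txnip-/-* level, 846 CPM in replicate 2, was still below the lowest WT level of 1080 CPM. In scaled terms *Esm1* fell from 1121 ± 37.2 to 774 ± 64.7 CPM, a log2 fold change of -0.53 with an SE of 0.08 (adjusted p = 0.000898, edgeR), which placed *Esm1* 44th by p among the 11583 genes. It was the only member whose call held in all 6 fits that left out a library (log2 fold changes -0.60 to -0.48, adjusted p-values 0.000118 to 0.0207, edgeR).

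**Figure D2:**
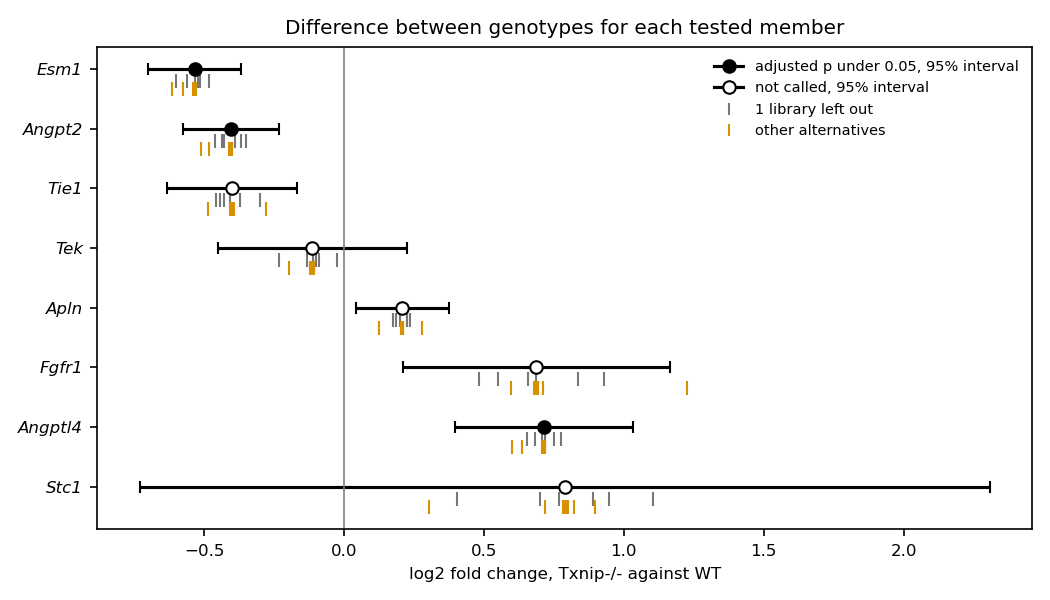
Log2 fold change of *Txnip-/-* against WT LSECs for the 8 tested members, with 95% intervals; filled points had an adjusted p under 0.05. Grey ticks show fits that left out 1 library and orange ticks the other alternatives. No tick lies on the other side of 0 from its point, and *Fgfr1* and *Stc1* spread the most.

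*Fgfr1* encodes a fibroblast growth factor receptor. The gene (chromosome 8, 25513654 to 25575718, plus strand, 18 exons) was measured at 34.1, 22.5 and 29.7 CPM for *Txnip-/-* and 23.4, 17.8 and 12.3 CPM for WT. The genotypes overlapped in 1 pair of libraries, *Txnip-/-* replicate 2 and WT replicate 1. The log2 fold change of 0.69 (SE 0.23) did not pass (adjusted p = 0.187, edgeR). With a library left out it ranged from 0.48 without WT replicate 3, the lowest WT library, to 0.93 without WT replicate 1, the highest, and passed in none of these fits (adjusted p = 0.13 to 0.464, edgeR). It passed with no filter on low counts (0.68, adjusted p = 0.0355, edgeR) and when WT replicates 1 and 2 were given a term of their own (1.23, adjusted p = 0.0402, edgeR). The latter fit, added once the data had been seen, compares the *Txnip-/-* libraries with WT replicate 3 alone and assumes that this lone library varies like the others.

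*Stc1* encodes the secreted glycoprotein stanniocalcin 1 (chromosome 14, 69029238 to 69041804, plus strand, 4 exons). Only 16, 23 and 20 counts (*Txnip-/-*) and 15, 5 and 16 counts (WT) were found. Although the scaled levels did not overlap, the margin was 1.79 against 1.69 CPM, and *Txnip-/-* replicate 1 and WT replicate 3 had the same count. The log2 fold change of 0.79 had a 95% interval of -0.73 to 2.31 (adjusted p = 0.761, edgeR), so no difference was detectable at this depth.

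Ratios between members within a library need no scaling. The ratio of *Esm1* to *Apln* counts was 1.36, 1.67 and 1.40 for *Txnip-/-* and 2.42, 2.32 and 2.66 for WT. That of *Angpt2* to *Apln* was 1.28, 1.22 and 1.11 against 1.72, 1.74 and 2.08. Both ratios were lower in every *Txnip-/-* library than in every WT library, a description for which no test was run. This followed from the scaled levels, in which *Esm1* and *Angpt2* were lower and *Apln* higher without overlap, so the ratios add no separate support. The ratio of *Esm1* to *Angpt2* overlapped between the genotypes, at 1.23 ± 0.157 in *Txnip-/-* and 1.34 ± 0.063 in WT LSECs (n = 3 each).

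**Figure D3:**
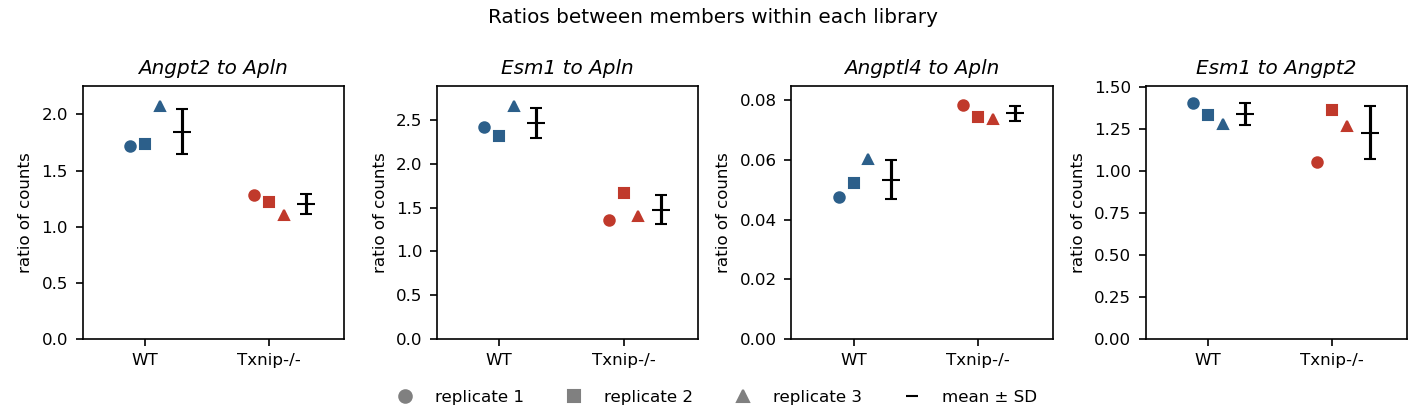
Ratio of the counts of 2 members within each library (linear axes from 0), for the 3 WT and 3 *Txnip-/-* libraries; bars give the mean ± SD. The ratios of *Angpt2* and *Esm1* to *Apln* are lower and that of *Angptl4* to *Apln* is higher in every *Txnip-/-* library, and the ratio of *Esm1* to *Angpt2* overlaps.

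By level in WT LSECs the order was *Esm1*, *Angpt2*, *Apln*, *Tie1*, *Tek*, *Angptl4*, *Fgfr1* and *Stc1*, and only *Angptl4* and *Fgfr1* overlapped as neighbours. In *Txnip-/-* LSECs *Angptl4* stood above *Fgfr1* and *Tek*, which overlapped each other. *Esm1* moved from rank 72 to rank 131 among all genes tested, *Angpt2* from 114 to 160 and *Apln* from 257 to 207. Over the 6 libraries, the genes whose log2 CPM correlated most with *Tek* were *Ciao1*, *Med16* and *Rnf25* (Pearson's r 0.987, 0.982 and 0.982), with *Tie1* they included *Sub1* and *Tsc2* (0.993 and 0.987), and with *Apln* they were *Phlda1*, *Hspd1* and *Slc7a1* (0.997, 0.994 and 0.993). These values describe 6 points that share library and genotype, and 101, 122 and 216 genes, respectively, had an r above 0.9.

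Genes that act beside TEK did not pass the test. Of 25 partner genes 20 were tested, 7 higher and 13 lower, with 0 called in edgeR, 1 higher and 3 lower at an unadjusted p under 0.05, and a median log2 fold change of -0.077 against -2.75e-05 for all genes tested. *Ptprb*, the vascular phosphatase that dephosphorylates TEK, was abundant, at 369, 375 and 386 CPM for *Txnip-/-* and 447, 443 and 416 CPM for WT, without overlap (log2 fold change -0.21, adjusted p = 0.286, edgeR). *Foxo1*, the transcription factor restrained by TEK through AKT, was at 60.6 ± 5.18 and 70.0 ± 1.16 CPM (adjusted p = 0.531, edgeR). The smallest p-values of the list were those of *Mef2c*, an endothelial transcription factor (log2 fold change -0.39, adjusted p = 0.135, edgeR), and *Itgav*, an integrin subunit (0.35, adjusted p = 0.17, edgeR). *Svep1*, the gene of a TIE1 ligand, had 1 count in all, and *Angpt4* had 0.

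The other angiopoietin-like genes were scarce. *Angptl6* was the only one of 5 to pass the filter, at 4.54 ± 1.53 and 2.12 ± 1.12 CPM in *Txnip-/-* and WT LSECs (log2 fold change 1.10, adjusted p = 0.459, edgeR). Lipoprotein lipase itself, *Lpl*, stood out in the list of 18 PPAR target and lipase genes, of which 17 were tested, 4 higher and 13 lower, with 2 called lower (*Lpl* and *Txnip*) and 0 higher. Of all genes tested 0.976% were called lower and 0.57% higher. The call of *Txnip*, the gene deleted in these mice, was given by the design. *Lpl* fell from 108 ± 1.29 to 43.4 ± 7.0 CPM, a log2 fold change of -1.31 with an SE of 0.12 (adjusted p = 6.74e-06, edgeR), opposite in direction to *Angptl4*. Macrophages also express *Lpl*, and the summed Kupffer cell markers were lower in the same libraries, whose part in this result was not tested. *Gpihbp1*, the endothelial anchor of lipoprotein lipase, which was named after its values were seen, was at 41.6 to 55.0 CPM in *Txnip-/-* and 46.8 to 54.4 CPM in WT LSECs.

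Of 19 apelin pathway partners 15 were tested, 6 higher and 9 lower, with 0 called in edgeR, 0 higher and 3 lower at an unadjusted p under 0.05, and a median log2 fold change of -0.0087. *Arrb1*, which encodes a β-arrestin that binds activated receptors, came nearest, at 39.1 ± 4.82 CPM in *Txnip-/-* and 57.1 ± 3.98 CPM in WT LSECs without overlap (log2 fold change -0.55, adjusted p = 0.0549, edgeR). *Klf2*, a shear-responsive transcription factor, was at 20.9 to 33.6 CPM in *Txnip-/-* and 20.5 to 33.0 CPM in WT LSECs (adjusted p = 0.936, edgeR), and *Nos3*, the endothelial nitric oxide synthase gene, at 11.8 ± 1.81 and 10.7 ± 1.54 CPM (adjusted p = 0.906, edgeR).

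The wider tip-cell programme was described by its counts alone. Of 46 other tip-cell genes 43 were tested, 20 higher and 23 lower, with a median log2 fold change of -0.033. None was called in edgeR, and 6 were higher and 2 lower at an unadjusted p under 0.05. With 0.976% of all genes tested called lower and 0.57% higher, 0 calls in a list of this size cannot be told apart from that background. The matching share of all genes at an unadjusted p under 0.05 is not given here. The smallest p-values were those of *Ednrb*, an endothelin receptor gene (log2 fold change 0.43, adjusted p = 0.0697, edgeR), and *Lamb1*, a basement membrane laminin chain (0.90, adjusted p = 0.0902, edgeR). The VEGF receptor genes *Kdr* and *Flt4* overlapped between the genotypes, with log2 fold changes of -0.11 and -0.083 (adjusted p = 0.727 and 0.839, edgeR). *Dll4*, the Notch ligand of tip cells, was at 3.89 ± 2.34 and 6.63 ± 1.03 CPM (adjusted p = 0.568, edgeR).
Of 29 stalk-cell genes 19 were tested, 8 higher and 11 lower, with a median of -0.035. Of the 19, 1 was called higher and 2 were called lower, against 0.57% and 0.976% of all genes tested. *Tgm2*, a matrix-crosslinking transglutaminase, rose from 472 ± 33.0 to 647 ± 44.0 CPM (log2 fold change 0.45, adjusted p = 0.00753, edgeR). *Lgals3*, a galectin also abundant in macrophages, fell from 163 ± 19.3 to 84.1 ± 4.46 CPM (log2 fold change -0.95, adjusted p = 5.08e-05, edgeR), and *Aqp1*, a water channel of endothelium, fell from 203 ± 23.0 to 147 ± 5.38 CPM (-0.47, adjusted p = 0.0214, edgeR).

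**Figure D4:**
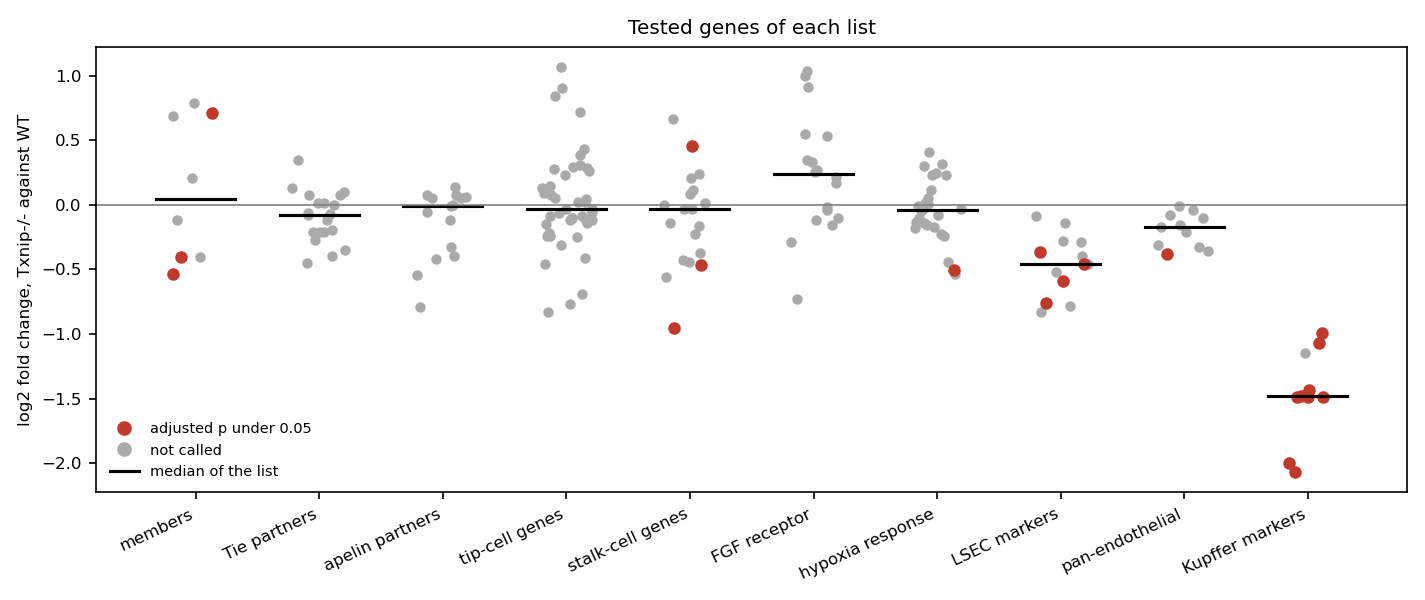
Log2 fold change of *Txnip-/-* against WT LSECs for every tested gene of the members and of 9 other lists, with red points for an adjusted p under 0.05 and lines at each median. The tip-cell and stalk-cell medians are -0.033 and -0.035, while the LSEC and Kupffer cell markers lie at -0.46 and -1.48.

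Among 27 genes of the FGF receptor pathway 18 were tested, 11 higher and 7 lower, with 0 called in edgeR, 3 higher and 1 lower at an unadjusted p under 0.05, and a median log2 fold change of 0.24. *Fgfr2* was at 2.13 ± 0.19 and 1.05 ± 1.35 CPM in *Txnip-/-* and WT LSECs (adjusted p = 0.765, edgeR), *Fgfr3* had 3 to 14 counts per library and *Fgfr4* 0 to 2, so *Fgfr1* had the most counts of these receptor genes. *Flrt2*, a membrane partner of FGF receptors (log2 fold change 0.25), and *Plcg1*, a phospholipase that they activate (-0.73), had the smallest p-values (adjusted p = 0.301 and 0.304, edgeR). Hypoxia-response genes were listed because *Angptl4*, *Apln* and *Stc1* are known to respond to low oxygen. Of 31 such genes 26 were tested, 10 higher and 16 lower, with a median of -0.040. Among them 1 was called lower and 0 higher, against 0.976% and 0.57% of all genes tested. *Ndrg1*, a stress-response gene, was the 1 called gene and fell from 103 ± 8.22 to 72.8 ± 3.65 CPM (log2 fold change -0.50, adjusted p = 0.0214, edgeR). *Arnt*, the partner subunit of the hypoxia-inducible factors, was next (-0.54, adjusted p = 0.168, edgeR).

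Beside the fall of *Esm1* and *Angpt2*, the endothelial markers had lower means, not all without overlap. All 13 tested LSEC markers had a lower mean in *Txnip-/-* LSECs, with a median log2 fold change of -0.46. Of these, 4 were called (*Stab1*, *Stab2*, *Mrc1* and *Maf*), against 0.976% of all genes tested called lower. Kupffer cell markers fell further (median -1.48), and their part in the lower LSEC markers was not tested. All 11 pan-endothelial markers also had a lower mean, with a median of -0.17, 1 called and 3 lower at an unadjusted p under 0.05 (edgeR). Among them *Pecam1*, *Cdh5*, *Egfl7* and *Esam*, each highest in WT replicate 3, overlapped between the genotypes, as did *Ecscr*. The others did not, beside 17.4% of all genes tested without overlap in either direction. The log2 fold changes of *Esm1* and *Angpt2*, -0.53 and -0.40, were of the size of the LSEC marker median, and *Apln* and *Angptl4* lay on the other side of 0. The summed LSEC markers overlapped (2677 to 3244 CPM in *Txnip-/-* and 3102 to 5445 CPM in WT LSECs) through *Lyve1* in WT replicate 3, and without *Lyve1* they did not (1202 to 1268 CPM and 1583 to 1665 CPM). Whether *Esm1* and *Angpt2* differed apart from these markers was not tested. Without WT replicate 3, the WT library nearest to the *Txnip-/-* libraries, *Esm1*, *Angpt2* and *Angptl4* kept their calls (log2 fold changes -0.51, -0.35 and 0.77). Set against WT replicate 3 alone, in the fit with the term for the other WT libraries, the values were -0.57, -0.51 and 0.60, with adjusted p-values of 0.000585, 0.00176 and 0.184 (edgeR) that rest on 1 WT library.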

How the data were processed

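Libraries were grouped by their titles, 3 *Txnip-/-* and 3 WT. The values are deposited counts per gene symbol, for which the authors mapped the QuantSeq reads with Bowtie2 to mm10 (per the submitters' processing notes) and used Bedtools, keeping reads with multiple alignments, which can add reads of similar copies. Versions, annotation and use of strand are not given in the sources used here. Positions come from GENCODE M21 (GRCm38, the same build). There the last 500 bases within the last exon overlapped no other gene's exon for any member. For *Tie1* only the 402 bases of its last exon were examined.

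Genes passing filterByExpr were fitted with genotype alone in edgeR 4.0.16 under R 4.3.3 (TMM, glmQLFit, glmQLFTest), after a trial on simulated data. SEs were derived from each fold change and F value. The total count per library was 9147764 to 10193952. The Poisson interval of *Angpt1* and the floors cover counting error only, since no molecular identifiers are named. The intervals of log2 fold changes were built from the SEs and so also include the spread between libraries.

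All members are named, with up to 6 called genes of each list (where fewer than 2 were called, the 2 of smallest p), 12 partners and the 3 genes most like *Tek*, *Tie1* and *Apln*, except that some of these are not reported here. Members, lists and motifs were chosen with earlier results of these data known. Alternatives were DESeq2 1.42.0, limma-trend (limma 3.58.1, prior count 2), other scalings, filters and thresholds, the replicate block and each library left out. A separate term for WT replicates 1 and 2 and leaving out *Rn45s* were chosen with the data in view.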

Additional observations from a re-analysis of the deposited data

How the results depend on the processing

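No alternative turned the direction of any of the 8 tested members. The 3 called members became 5 with no filter on low counts (*Tie1* and *Fgfr1* in addition) and 1 (*Esm1*) with the replicate block, and were 1 to 4 with a library left out, 1 (*Esm1*) without *Txnip-/-* replicate 2 or 3 and 4 without WT replicate 3. Over all genes the calls numbered 179 (66 higher, 113 lower), 346 with no filter, 302 with DESeq2 and 108 with the replicate block. They were 89 to 367 with a library left out, at 95, 98 and 112 without *Txnip-/-* replicates 1, 2 and 3 and 89, 96 and 367 without WT replicates 1, 2 and 3. With no normalization factors the median log2 fold change of all genes was -0.082 and 36 genes were called higher and 150 lower. The cause of these differences was not tested, beyond the fewer libraries or added terms in the fits. Same-numbered libraries did not deviate together (correlations of -0.030, 0.017 and -0.047, and 1 of 6 libraries correlated best with its own number), so the block pairs libraries by number only. The 6 members without overlap were 5 to 7 under other scalings and with a library left out. Depth limits *Angpt1* and *Stc1*, with at most 23 counts in any library.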
